A study of Homo sapiens with 9 samples.

Results

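Messenger RNA of 10 genes best known from blood leukocytes was followed across 9 tumour libraries: CSF1R, TYROBP, FCER1G, CD79A, CTSS, CD68, LAPTM5, BIN2, LTF and S100A9. They were taken by symbol from 50868 genes in the table. These members were chosen by their measured values, since each had been seen to be higher with the HNF4A vectors than with the control vector. Their levels against the control are therefore given as a description, and the counts of calls over the control printed below support nothing. The contrast between both HNF4A vectors did not enter the choice and was tested.

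The tumours were subcutaneous xenografts in NOD/SCID mice of Huh-7, an established cell line from a human hepatocellular carcinoma. Adenovirus was injected into tumours of about 100 mm3 every 4 days over 8 days, with 3 libraries for each of 3 vectors. Ad-GFP carried green fluorescent protein and served as the control, Ad-HNF4A carried the nuclear receptor HNF4A, and Ad-K458R carried HNF4A with the K458R change. All groups thus shared the cell line, the host strain and an adenoviral vector, and no age of the host is stated in the labels used here. NOD/SCID mice lack mature T and B cells but keep macrophages and neutrophils, whose function is impaired. The labels do not say that the tumours of a group came from separate animals, and the p-values below rest on the spread between libraries, which may be technical.

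Library totals ran from 15933702 to 23171796 counts, so that 1 count was worth 0.0442 to 0.0626 CPM (counts relative to the scaled library total). HNF4A mRNA, which both vectors carry, was at 154, 170 and 183 CPM with Ad-GFP. It was at 3700, 3507 and 5391 CPM with Ad-HNF4A, and at 5412, 4999 and 5489 CPM with Ad-K458R. All 10 hepatocyte markers examined were at 1 CPM or more on average with Ad-GFP. On the second principal component, Ad-HNF4A replicate 1 lay away from the rest (46.1, against -11.2 to 4.12 in the other libraries, 12.7% of the variance). Leaving it out moved no member's log2 fold change by more than 0.33 against Ad-GFP, or by more than 0.34 between the HNF4A vectors.

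Myeloid cells read their surroundings through receptors that signal either by their own kinase or by small adaptor proteins. CSF1R is the receptor kinase on which macrophages depend for survival. TYROBP (DAP12) and FCER1G (the Fc receptor gamma chain) are membrane adaptors whose cytoplasmic tails carry an immunoreceptor tyrosine-based activation motif (ITAM), and CD79A does the same work within the B-cell receptor. CTSS is a lysosomal cysteine protease that trims the invariant chain in antigen-presenting cells, CD68 a lysosomal membrane glycoprotein of macrophages, and LAPTM5 a lysosomal membrane protein of haematopoietic cells. BIN2 is an N-BAR membrane-shaping protein of leukocytes. LTF (lactoferrin) is an iron-binding protein of neutrophil granules and of milk and other secretions, and S100A9 is a calcium-binding protein abundant in neutrophils and monocytes. HNF4A is a nuclear receptor that binds promoters and enhancers of many hepatocyte genes.

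The promoters of the members were searched for 5 short motifs on both strands. The windows ran from 250 bases before to 50 bases after each RefSeq start site (GRCh38.p14). Matching by symbol found 11 windows of 8 members, with CTSS and BIN2 not among them. The 4 windows with a match are printed because they are the only sequence among the 11 that any motif searched picked out, each 5′ to 3′ in the gene's direction to 30 bases after the start, with the match in capitals.
CD68, chr17:7579388-7579667, plus strand: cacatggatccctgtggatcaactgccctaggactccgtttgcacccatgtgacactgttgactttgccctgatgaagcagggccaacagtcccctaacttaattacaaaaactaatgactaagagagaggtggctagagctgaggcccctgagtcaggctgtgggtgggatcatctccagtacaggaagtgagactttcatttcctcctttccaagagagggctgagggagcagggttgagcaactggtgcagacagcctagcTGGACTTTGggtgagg
TYROBP, chr19:35908266-35908545, minus strand: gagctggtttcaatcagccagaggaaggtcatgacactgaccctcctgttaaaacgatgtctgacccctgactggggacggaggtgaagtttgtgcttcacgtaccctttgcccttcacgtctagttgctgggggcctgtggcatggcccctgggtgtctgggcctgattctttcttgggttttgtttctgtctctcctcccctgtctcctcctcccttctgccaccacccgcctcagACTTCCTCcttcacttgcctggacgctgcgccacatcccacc
S100A9, chr1:153357604-153357883, plus strand: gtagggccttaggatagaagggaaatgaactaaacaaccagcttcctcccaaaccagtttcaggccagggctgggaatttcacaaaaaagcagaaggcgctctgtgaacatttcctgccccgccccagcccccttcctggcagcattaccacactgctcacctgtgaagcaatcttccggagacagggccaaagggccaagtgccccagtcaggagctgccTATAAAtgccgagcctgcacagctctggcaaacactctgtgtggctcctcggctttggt
LTF, chr3:46463625-46463904, minus strand: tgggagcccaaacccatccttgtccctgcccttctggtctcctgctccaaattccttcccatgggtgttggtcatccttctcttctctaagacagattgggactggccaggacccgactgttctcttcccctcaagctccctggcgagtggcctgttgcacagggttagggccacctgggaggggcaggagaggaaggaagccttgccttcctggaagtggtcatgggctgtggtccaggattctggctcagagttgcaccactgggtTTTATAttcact

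In CD68 the capitals mark CAAAGTCCA, a form of the HNF4 half-site, on the opposite strand from base +15, counting the start site as +1. That motif occurs in 0.384% of all 35116 windows. TYROBP held GAGGAAGT, a form of the site of the myeloid factor PU.1, on the opposite strand from base -12, as do 2.59% of windows. TATAAA, the TATA box, began at base -29 of S100A9 on its own strand, and at base +19 of 1 of the 3 LTF windows on the opposite strand, and it is found in 11.5% of windows. No member's window held CAAAGTTCA (0.296% of windows), the other HNF4 form, or TTGCGCAA (0.151%), a C/EBP palindrome. Only these exact letters were searched, so windows without a match may hold other forms of the same sites. A match is a description of the letters and not a measured binding site.

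The receptor CSF1R (ENSG00000182578, chromosome 5, 150053291 to 150113372) had a single count over the 3 control libraries. Its raw counts were 0, 1 and 0 with Ad-GFP, 12, 8 and 7 with Ad-HNF4A, and 14, 11 and 11 with Ad-K458R. Both HNF4A groups lay wholly above the control and overlapped each other, at means of 0.523 ± 0.206 and 0.626 ± 0.137 CPM (SD, n = 3). With 1 control count in all, the ratio of counts to Ad-GFP was 31.9 (exact 95% interval 5.26 to 1307) for Ad-HNF4A and 38.9 (6.55 to 1579) for Ad-K458R. These intervals cover counting error only. A ribosomal protein pseudogene, RPL7P1, lies within CSF1R on the opposite strand. No strand-keeping step is described, so reads of the pair may not have been told apart, and RPL7P1 was at 294 ± 9.55, 292 ± 27.0 and 289 ± 9.15 CPM in the 3 groups in turn.

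The ITAM adaptors came at low counts. TYROBP (ENSG00000011600, chromosome 19, 35904401 to 35908295) had no count in the Ad-GFP libraries, 1, 6 and 4 counts with Ad-HNF4A, and 7, 6 and 13 with Ad-K458R. Its mean was at least 4.26-fold and at least 9.60-fold higher than a control floor of 3 counts over the group (0.048 CPM). It did not pass the filter on low counts and has no fitted value.

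FCER1G (ENSG00000158869, chromosome 1, 161215234 to 161220699) was detectable in every library, with 9, 4 and 7 counts under Ad-GFP, 22, 16 and 23 under Ad-HNF4A, and 18, 19 and 27 under Ad-K458R. The lowest library of either HNF4A vector was above the highest control library, and the 2 HNF4A groups overlapped. Over the control, the log2 fold change was 1.82 ± 0.38 (SE) for Ad-HNF4A and 1.76 ± 0.37 for Ad-K458R.

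CD79A (ENSG00000105369, chromosome 19, 41877120 to 41881372) had 1, 1 and 0 counts with Ad-GFP. It had 13, 11 and 17 counts with Ad-HNF4A, and 24, 37 and 33 with Ad-K458R. The 3 groups did not overlap: the means were 0.0329 ± 0.0289, 0.770 ± 0.116 and 1.61 ± 0.266 CPM (SD, n = 3). The ratio of counts to the control was 24.2 (exact 95% interval 6.30 to 207) for Ad-HNF4A and 50.8 (13.7 to 425) for Ad-K458R.

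Of the lysosomal members, CTSS (ENSG00000163131, chromosome 1, 150730196 to 150765957) was at 3.18, 2.99 and 3.48 CPM with Ad-GFP. Under Ad-HNF4A it reached 8.71, 9.58 and 8.02 CPM, and under Ad-K458R 10.7, 8.94 and 8.20 CPM. Every library of the HNF4A vectors was above every control library, and these 2 groups overlapped. Log2 fold changes were 1.44 ± 0.15 and 1.52 ± 0.15 (SE).

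CD68 (ENSG00000129226, chromosome 17, 7579467 to 7582113) had the smallest ratio to the control of the 10. It was at 13.1, 13.3 and 10.8 CPM with Ad-GFP, at 14.8, 16.2 and 22.6 CPM with Ad-HNF4A, and at 25.3, 24.8 and 24.4 CPM with Ad-K458R. The groups did not overlap, though Ad-HNF4A replicates 1 and 2 sat near the control and replicate 3 near Ad-K458R. The ratio of means to the control was 1.44 with Ad-HNF4A and 2.0 with Ad-K458R. AC016876.3 overlaps most of CD68 on the same strand, at 55.0 ± 13.7, 52.0 ± 17.6 and 58.1 ± 5.58 CPM in the 3 groups in turn. AC016876.2 overlaps the end of CD68 on the opposite strand. No counting tool is named, so how reads of these overlapping genes were assigned is not known, and the level of CD68 carries this limit.

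LAPTM5 (ENSG00000162511, chromosome 1, 30732469 to 30757820) had 2 counts in each Ad-GFP library. Under Ad-HNF4A it had 12, 20 and 18 counts, and under Ad-K458R 17, 27 and 21. The means of 0.940 ± 0.206 and 1.11 ± 0.152 CPM (SD, n = 3) were 9.60 and 11.3 times the control mean of 0.0979 ± 0.0102 CPM, and the HNF4A groups overlapped.

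BIN2 (ENSG00000110934, chromosome 12, 51281038 to 51324668) had the largest ratio to the control among the 9 members with control counts. Its counts were 0, 0 and 1 with Ad-GFP, 85, 76 and 134 with Ad-HNF4A, and 132, 173 and 129 with Ad-K458R. In CPM the Ad-HNF4A libraries were at 5.32, 4.41 and 6.76 and the Ad-K458R libraries at 7.25, 7.81 and 7.20, without overlap. The single control count came from replicate 3, so the interval of the count ratio is wide. The ratio was 349 (exact 95% interval 62.1 to 13827) for Ad-HNF4A and 469 (83.7 to 18564) for Ad-K458R.

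LTF (ENSG00000012223, chromosome 3, 46435645 to 46485234) had 0, 1 and 6 counts with Ad-GFP. It had 32, 21 and 48 counts with Ad-HNF4A and 59, 73 and 54 with Ad-K458R, and the groups did not overlap in CPM. Its log2 fold change was 3.98 ± 0.59 (SE) for Ad-HNF4A and 4.73 ± 0.56 for Ad-K458R. Most control counts came from Ad-GFP replicate 3, and without it these became 5.93 and 6.68.

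S100A9 (ENSG00000163220, chromosome 1, 153357854 to 153361027) was at 5.13, 6.31 and 6.62 CPM with Ad-GFP. Under Ad-HNF4A it stood at 9.77, 8.18 and 13.6 CPM, and under Ad-K458R at 18.2, 17.2 and 14.8 CPM. The 3 groups formed a ladder without overlap, at 1.75 and 2.78 times the control mean. Unlike most of the others, S100A9, CD68 and CTSS had 116 to 137, 224 to 296, and 55 to 72 counts in the control libraries.

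**Figure D1:**
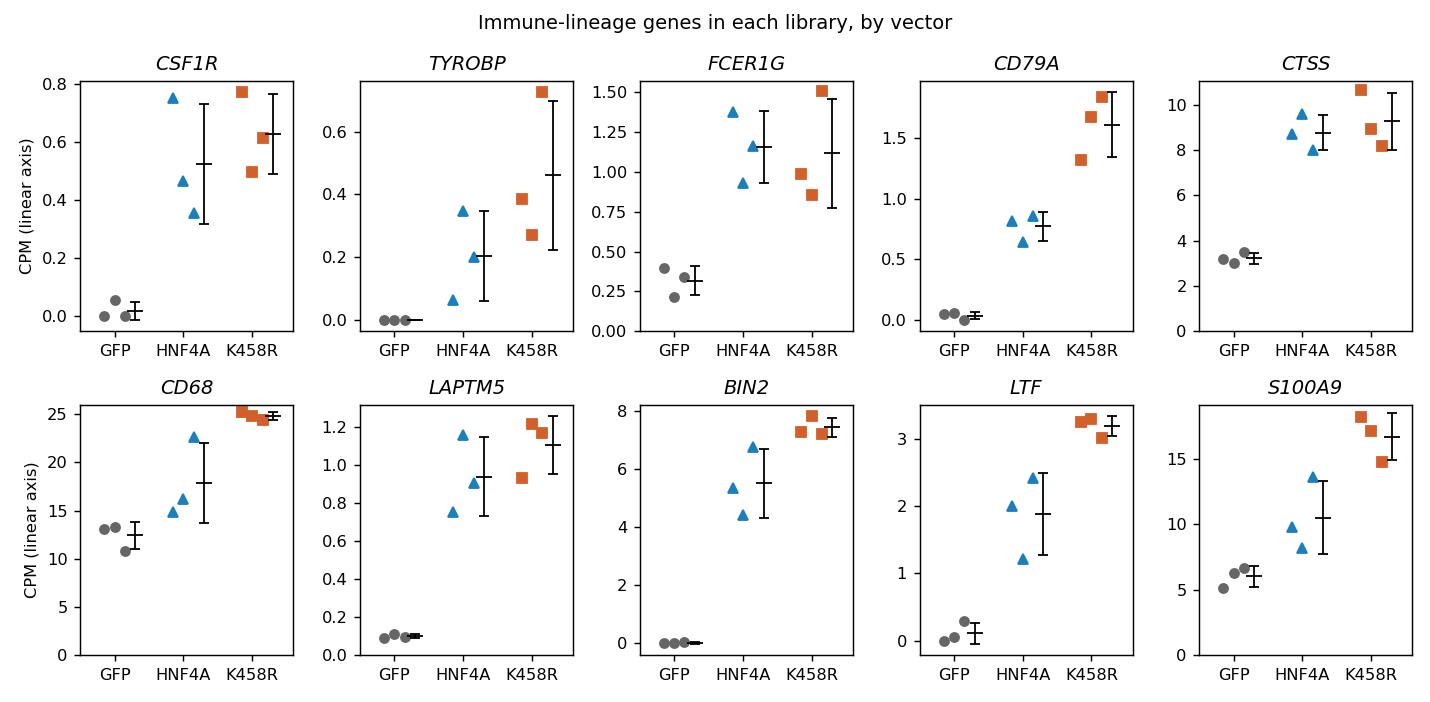
CPM of each member on linear axes in every library of Ad-GFP (circles), Ad-HNF4A (triangles) and Ad-K458R (squares), with the mean and SD of 3 libraries as a dash and bar beside them. In all 10 panels the libraries of both HNF4A vectors lie above the 3 control libraries, and BIN2 goes from 0.0161 ± 0.0279 CPM to 5.50 ± 1.18 and 7.42 ± 0.339 CPM.

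All 10 members were above every Ad-GFP library in all 3 libraries of Ad-HNF4A, and likewise of Ad-K458R. Among all tested genes this held for 12.2% and 13.2%. By edgeR at an adjusted p under 0.05, 8 of the 9 members that passed the filter were called higher with Ad-HNF4A (all but CD68) and 9 of 9 with Ad-K458R. Over all 16697 genes, 3.16% were called higher and 0.305% lower with Ad-HNF4A, and 3.32% higher and 0.234% lower with Ad-K458R. Nothing is read from these counts, because the same contrasts chose the genes. The number with Ad-HNF4A was 5 without Ad-GFP replicate 1 or without Ad-GFP replicate 3. The comparisons with Ad-GFP share its 3 libraries.

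Levels can be compared between genes only per length. Divided by the exon length in GENCODE 29, the order in Ad-GFP was S100A9 (10.4 ± 1.37 CPM per kb, SD, n = 3), CD68 (5.67 ± 0.63), CTSS (0.761 ± 0.0582) and FCER1G (0.330 ± 0.0953), with the other 6 at a mean of 0.0299 or less. In Ad-K458R the first 3 places were again S100A9 (29 ± 3.07 CPM per kb), CD68 (11.4 ± 0.195) and CTSS (2.19 ± 0.299). BIN2, at 0.0040 ± 0.0070 in the control, came next at 1.85 ± 0.0844, and its libraries overlapped those of CTSS. FCER1G (1.16 ± 0.356) overlapped CD79A (1.07 ± 0.177), LTF (0.750 ± 0.0355) overlapped TYROBP (0.507 ± 0.261), TYROBP overlapped LAPTM5 (0.339 ± 0.0465), and CSF1R was lowest at 0.122 ± 0.0266 CPM per kb. The order in Ad-HNF4A began with S100A9 (18.2 ± 4.85), CD68 (8.17 ± 1.89), CTSS (2.07 ± 0.184) and BIN2 (1.37 ± 0.296) and ended with CSF1R (0.102 ± 0.0399). There BIN2 overlapped FCER1G (1.20 ± 0.233), and CSF1R overlapped TYROBP (0.225 ± 0.157). These orders depend on the length used. TYROBP has 907 bases of exon in GENCODE 29, against 2625 behind the deposited FPKM. By that FPKM in Ad-K458R, TYROBP (0.177 ± 0.0917) lay wholly below LTF (0.572 ± 0.0244), and its mean was under that of LAPTM5 (0.317 ± 0.0429).

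The contrast of the K458R form with the unchanged HNF4A was not used in choosing the members. Levels were higher on average with Ad-K458R for 9 of the 10 members, FCER1G being the exception, but no member passed the test between the vectors (0 of 9 called by edgeR, adjusted p from 0.38 to 0.98). At an unadjusted p under 0.05 there were 3. Over all genes 0.00599% were called higher and 0.00599% lower, 1 gene each, and 1460 genes had an unadjusted p under 0.05. The median log2 difference of the 9 tested members was 0.43, beside a median of -0.0033 over all tested genes. The members were chosen as higher with the HNF4A vectors, and those near 0 in the control passed the filter through those libraries. All tested genes are therefore no matched background, and these medians are a description.

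The 3 members with an unadjusted p under 0.05 were S100A9, CD79A and CD68. S100A9 was higher with Ad-K458R than with Ad-HNF4A by 0.66 ± 0.18 on the log2 scale (SE, 95% interval 0.26 to 1.07, edgeR adjusted p = 0.38). CD79A was higher by 1.06 ± 0.32 (0.35 to 1.76, edgeR adjusted p = 0.43) and CD68 by 0.47 ± 0.15 (0.14 to 0.80, edgeR adjusted p = 0.43). For each of these the direction was the same in 3 of 3 Ad-K458R libraries against every Ad-HNF4A library.

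The N-BAR protein BIN2 differed by 0.43 (95% interval -0.018 to 0.88) and LTF by 0.75 (-0.096 to 1.60), and here too the libraries did not overlap. In all, 5 of the 10 members had the 3 Ad-K458R libraries above the 3 Ad-HNF4A libraries, where 7.50% of tested genes did. For the reason given above, that share is no matched background and the count is a description. An exact two-sided permutation test gave p = 0.1 for each of these 5, which is the smallest that 3 libraries against 3 allow.

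For the other members the groups overlapped, and the intervals leave room for a difference in either direction. The log2 difference was 0.24 (95% interval -0.41 to 0.88) for LAPTM5, 0.27 (-0.75 to 1.28) for CSF1R, 0.080 (-0.23 to 0.39) for CTSS and -0.055 (-0.77 to 0.66) for FCER1G. TYROBP averaged 0.204 ± 0.143 CPM under Ad-HNF4A, against 0.460 ± 0.236 CPM under Ad-K458R (SD, n = 3; exact permutation p = 0.2). CTSS is the tightest of these, since its interval excludes a difference beyond 0.39 on the log2 scale.

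The 5 members without overlap between the vectors were also those highest in Ad-HNF4A replicate 3: CD68, BIN2, CD79A, LTF and S100A9. That library held more HNF4A mRNA (5391 CPM) than replicates 1 and 2 (3700 and 3507 CPM), and lay within the 4999 to 5489 CPM of Ad-K458R. CTSS, LAPTM5 and TYROBP were highest in replicate 2, and CSF1R and FCER1G in replicate 1. The part of the HNF4A level in the difference between the vectors was not tested.

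**Figure D2:**
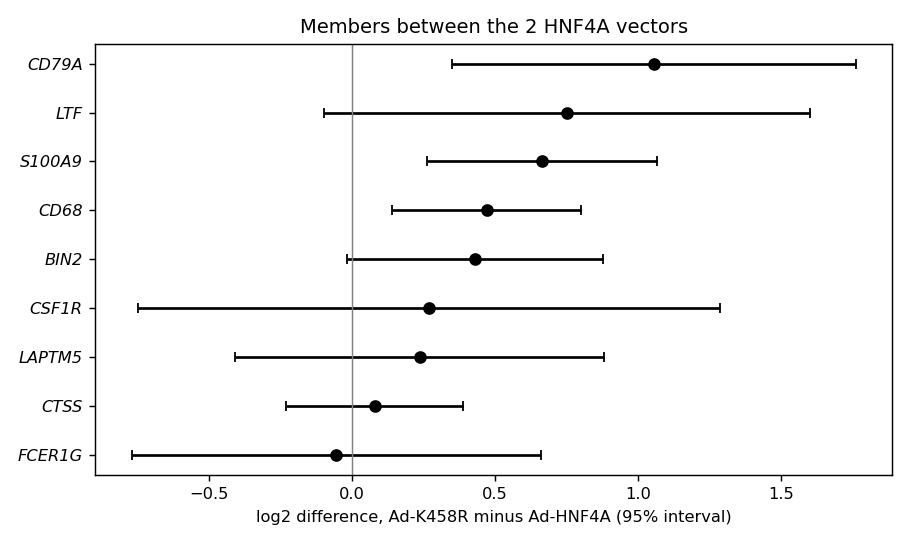
Log2 difference of Ad-K458R minus Ad-HNF4A for the 9 tested members (points) with 95% intervals (bars), and a vertical line at 0. The intervals of CD79A, S100A9 and CD68 lie above 0 before adjustment over all genes, those of the other 6 cross it, and FCER1G alone has its point below it.

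The members were next set beside 8 lists of leukocyte markers. In bulk tumours fewer cells of a type and less RNA per cell cannot be told apart. The lists held 128 genes that are no members, of which 20 had no count in any library and 67 had under 10 counts over all 9 libraries. Of the 31 that passed the filter, 3 were higher with Ad-HNF4A and 3 with Ad-K458R (9.68% each, beside 3.16% and 3.32% of all genes), and none was lower (edgeR, in either comparison). MARCO and ITGB2 were among them in each comparison, against the same control libraries. Genes near 0 in the control passed the filter through the groups where they are high, so these shares of tested genes are a description. The median log2 fold change of the 31 was 0.19 with Ad-HNF4A and 0.13 with Ad-K458R.

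Defining markers were sparse. SPI1, which encodes PU.1, and MS4A1, which encodes the B-cell antigen CD20, had 0 counts in all 9 libraries. ADGRE1, which had been placed in the macrophage and monocyte list, had 0 to 5. CD79B, the partner without which CD79A forms no B-cell receptor, had 3 counts in Ad-HNF4A replicate 1 and 0 in the other 8 libraries.

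S100A8, the partner of S100A9 in calprotectin, had counts of 7, 6 and 8 with Ad-GFP, 0, 5 and 18 with Ad-HNF4A, and 6, 9 and 4 with Ad-K458R. The groups overlapped. HCST (DAP10), an adaptor gene that neighbours TYROBP in the genome, had 0 to 4 counts in each library. PTPRC, the pan-leukocyte antigen CD45, ranged over 1 to 16, 2 to 22 and 5 to 18 counts in the 3 groups in turn.

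The monocyte co-receptor CD14 was at 2.28 ± 0.309, 3.69 ± 0.725 and 3.30 ± 0.686 CPM in the same order (SD, n = 3). All 6 libraries of the HNF4A vectors lay above the 3 control libraries in CPM, and the gene did not pass the test in either comparison (edgeR adjusted p = 0.13 and 0.31). ITGAM had 26 to 35, 28 to 34 and 28 to 41 counts, which overlapped. In CPM it was at 1.53 ± 0.115, 1.74 ± 0.0194 and 1.80 ± 0.239 (SD, n = 3). The 3 Ad-HNF4A libraries of ITGAM thus lay above the 3 control libraries in CPM, while those of Ad-K458R overlapped the control. It was not called in either comparison (edgeR adjusted p = 0.74 and 0.71). AIF1 had 5 to 20, 6 to 18 and 6 to 16 counts, and its groups overlapped.

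**Figure D3:**
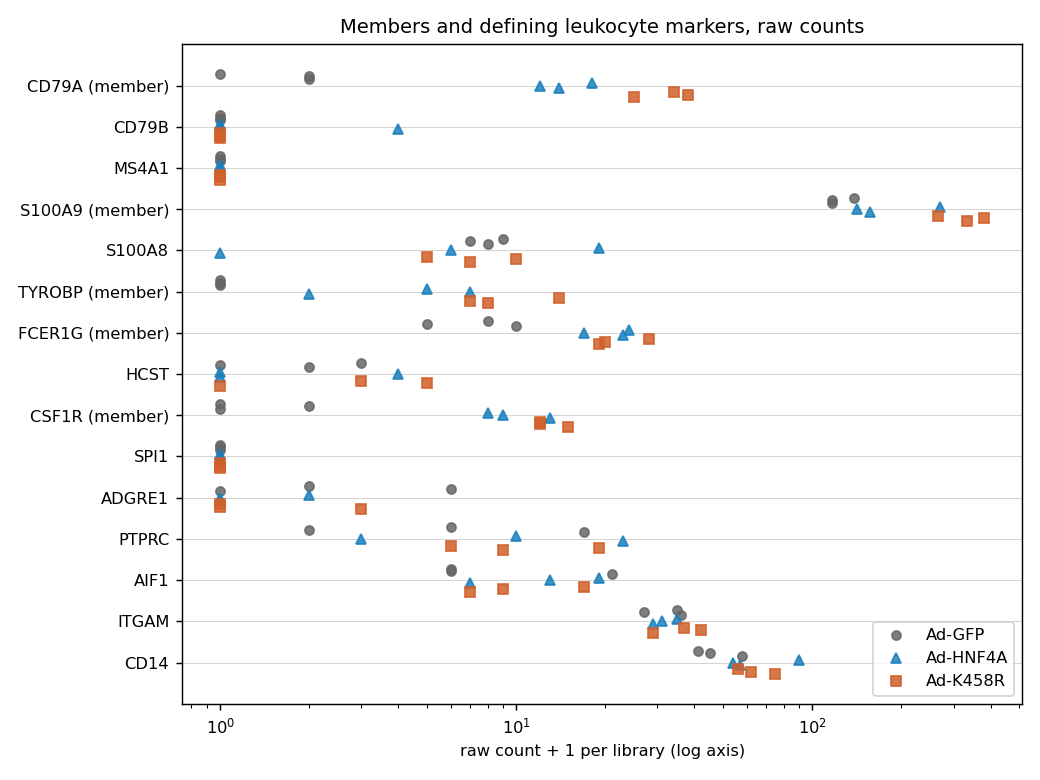
Raw counts plus 1 per library on a log axis for 5 members and 10 defining leukocyte markers, with Ad-GFP as circles, Ad-HNF4A as triangles and Ad-K458R as squares. CD79A, TYROBP, FCER1G, CSF1R and S100A9 separate the control from both HNF4A vectors, whereas CD79B, MS4A1, SPI1 and HCST stay at 0 to 4 counts. PTPRC, AIF1 and ITGAM overlap in these raw counts, which are not scaled for library totals.

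By cell type, none of the tested genes was called with either vector among pan-leukocyte (9 tested), B-cell (3), T-cell (3), natural killer (2) or dendritic (3) markers, and no marker of mast cells, basophils and eosinophils passed the filter. Macrophage and monocyte markers had 2 of 8 higher in each comparison, MARCO among them. MARCO, a scavenger receptor of macrophages, went from 0.879 ± 0.332 to 3.19 ± 1.44 CPM under Ad-HNF4A and 3.51 ± 0.485 CPM under Ad-K458R (SD, n = 3; edgeR adjusted p = 0.017 and 0.0094).

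Of 3 neutrophil markers tested, the 1 called in each comparison was ITGB2, which had passed the filter through the HNF4A-vector libraries. It encodes the common beta chain of leukocyte integrins and had counts of 0, 0 and 2 with Ad-GFP, 16, 7 and 20 with Ad-HNF4A, and 6, 13 and 11 with Ad-K458R (edgeR adjusted p = 0.013 and 0.039). MARCO and ITGB2 both lost their calls without Ad-GFP replicate 1 in each comparison, which left 1 of the 3 list genes called, and with Ad-HNF4A also without Ad-GFP replicate 2 or Ad-HNF4A replicate 3. In the comparison of Ad-K458R with Ad-GFP, ITGB2 was also lost without Ad-GFP replicate 2 or any 1 Ad-K458R library (edgeR adjusted p up to 0.14). Among genes below the filter, the cytotoxic-granule gene PRF1 had 0 counts in the control libraries, 18, 2 and 15 with Ad-HNF4A and 9, 6 and 8 with Ad-K458R. VAV1, a guanine nucleotide exchange factor of leukocytes in the pan-leukocyte list, likewise had 0 counts in the control, 6 in each Ad-HNF4A library and 4, 7 and 10 with Ad-K458R. These 2 genes were singled out after their values were seen, and edgeR called both in each comparison when no filter was applied.

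The summed level of each list gives its whole signal in a group. The macrophage list summed to 313 to 343 CPM in the control libraries, 246 to 347 under Ad-HNF4A and 287 to 328 under Ad-K458R, most of it from LYZ (lysozyme, 314 ± 15.9, 286 ± 59.9 and 281 ± 20.4 CPM). The pan-leukocyte list summed to 149 to 161, 136 to 140 and 150 to 171 CPM, the neutrophil list to 30.8 to 41.5, 19.3 to 31.5 and 31.0 to 47.3 CPM, and the B-cell list to 8.13 to 8.89, 9.54 to 10.02 and 8.89 to 10.4 CPM. Groups overlapped for the macrophage list, the pan-leukocyte sum was lower with Ad-HNF4A than in the control libraries, and the B-cell sum was higher. Most of the pan-leukocyte sum was LCP1, at 121 ± 6.36, 106 ± 4.04 and 128 ± 6.47 CPM in the 3 groups in turn. The largest gene of the B-cell list, BANK1, did not rise with Ad-HNF4A (4.71 ± 0.675, 4.37 ± 0.693 and 4.80 ± 0.491 CPM). No gene of either list was called, so these sums are no measure of a cell type. The 8 lists together held 528 to 579, 449 to 559 and 535 to 563 CPM. Of the 128 genes, 20 were at 1 CPM or more on average in the control tumours, so these sums rest on few genes. How mouse reads were handled is unstated in the labels and headers, and the part of host leukocytes in the members' levels was not tested.

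Few markers of other cells of blood and stroma passed the filter, so their calls are a description. Over all tested genes 3.16% and 3.32% were called higher with Ad-HNF4A and Ad-K458R. The 1 platelet marker that passed the filter was TREML1, which did so through the HNF4A-vector libraries and was at 0.0973 ± 0.0833, 1.07 ± 0.402 and 1.04 ± 0.0765 CPM (SD, n = 3; edgeR adjusted p = 0.0050 and 0.0045). Of the endothelial markers 1 of 4 was higher, VWF (von Willebrand factor), at 0.370 ± 0.107, 1.41 ± 0.697 and 2.23 ± 0.633 CPM (edgeR adjusted p = 0.049 and 0.0074). With Ad-HNF4A the call of VWF was lost on leaving out any library except Ad-HNF4A replicate 1 (adjusted p up to 0.18, edgeR). None of 6 fibroblast markers was called, no red-cell marker passed the filter, and 1 of 10 hepatocyte markers, the apolipoprotein gene APOA1, was higher in each comparison, but with Ad-K458R not on leaving out any 1 library (edgeR adjusted p up to 0.17).

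Families related to each member were then read from 8 further lists. The share of all tested genes called was 3.16% higher and 0.305% lower with Ad-HNF4A, and 3.32% higher and 0.234% lower with Ad-K458R. Each list holds few tested genes, so its counts are a description. For CSF1R, none of 4 tested ligand and receptor relatives was called. CSF1 itself, the ligand, was at 32.7 ± 6.44, 27.9 ± 10.1 and 35.6 ± 2.47 CPM (SD, n = 3) in the 3 groups in turn. Among 8 tested ITAM adaptors, partner receptors and kinases, 1 was higher in each comparison. With Ad-HNF4A it was the Fc receptor FCGR2A (0.393 ± 0.179 to 1.51 ± 0.571 CPM, edgeR adjusted p = 0.037), and with Ad-K458R the inositol phosphatase INPP5D (3.18 ± 0.671 to 5.52 ± 0.354 CPM, edgeR adjusted p = 0.026). Each had the same sign with the other vector without passing the test (edgeR adjusted p = 0.12 and 0.086). The call of FCGR2A was lost on leaving out any library except Ad-HNF4A replicate 2, and that of INPP5D any except Ad-GFP replicate 1 (edgeR adjusted p up to 0.15 and 0.11).

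Of 16 tested cathepsins and cystatins, 2 were higher with each vector and 1 lower with Ad-K458R. The lysosomal protease CTSB went from 204 ± 3.18 CPM to 278 ± 11.4 under Ad-HNF4A and 297 ± 13.7 under Ad-K458R (SD, n = 3; edgeR adjusted p = 0.00097 and 0.00019). CTSZ went from 148 ± 12.6 to 216 ± 2.84 and 222 ± 4.56 CPM (edgeR adjusted p = 0.00075 and 0.00034). Both stayed called in all 15 alternatives of each comparison. CTSC, which activates granule proteases, fell by 0.23 on the log2 scale with Ad-K458R (edgeR adjusted p = 0.045), a call lost on leaving out any 1 library (adjusted p up to 0.16).

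Relatives of LAPTM5 and CD68 among lysosomal membrane proteins had none of 7 called with Ad-HNF4A and 1 with Ad-K458R. That 1 was LAMP3, a lysosomal protein of mature dendritic cells and lung epithelium, at 4.67 ± 0.251, 4.97 ± 0.160 and 8.73 ± 1.08 CPM (SD, n = 3) in Ad-GFP, Ad-HNF4A and Ad-K458R. Its edgeR adjusted p was 0.0031 against Ad-GFP and 0.19 against Ad-HNF4A (0.0067 for the latter by DESeq2). LAMP1, a membrane protein of lysosomes in most cells, was at 319 ± 16.3, 329 ± 22.1 and 342 ± 4.19 CPM and was not called. None of 6 tested N-BAR relatives of BIN2 was called, BIN1 being at 167 ± 14.4, 209 ± 40.0 and 159 ± 13.3 CPM.

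Relatives of LTF among transferrins and granule proteins had 1 of 4 higher with each vector, MELTF (melanotransferrin), at 20.2 ± 1.35, 34.2 ± 3.98 and 37.0 ± 1.63 CPM (SD, n = 3; edgeR adjusted p = 0.0015 and 0.00044). Among 11 tested S100 genes 2 were higher with each vector. S100A1 had a mean of 0.201 ± 0.178 CPM in the control and 1.22 ± 0.108 and 1.22 ± 0.0846 CPM under the HNF4A vectors (edgeR adjusted p = 0.027 and 0.023). It was not called without Ad-GFP replicate 1 in either comparison, nor without Ad-HNF4A replicate 1 or 3 or any 1 Ad-K458R library in its own (edgeR adjusted p up to 0.086 and 0.089). S100A13 went from 19.4 ± 1.03 to 28.0 ± 1.34 and 27.9 ± 1.21 CPM (edgeR adjusted p = 0.0048 and 0.0042). Both lie, like S100A9, in the S100 cluster of chromosome 1.

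Leukocyte transcription factors had 3 of 16 tested genes higher with Ad-HNF4A, among them MAF and TFEB, and 2 with Ad-K458R, among them MAF. MAF, a transcription factor of T cells and macrophages, went from 19.9 ± 1.21 to 27.3 ± 2.33 and 28.7 ± 1.40 CPM (SD, n = 3; edgeR adjusted p = 0.021 and 0.0075). TFEB, the master regulator of lysosomal genes, was at 1.19 ± 0.159 CPM with Ad-GFP and 2.54 ± 0.742 CPM with Ad-HNF4A (edgeR adjusted p = 0.046). With Ad-K458R it was at 2.10 ± 0.0725 CPM and was not called (edgeR adjusted p = 0.16). The call of TFEB was lost on leaving out any library except Ad-HNF4A replicate 2, and that of MAF with Ad-HNF4A without Ad-GFP replicate 1 or 2 or Ad-HNF4A replicate 1 or 3 (edgeR adjusted p up to 0.16 and 0.089).

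The nearest tested gene on either side of each member was compared as well. Of these 20 neighbours, 2 were higher with each vector and none lower. Over all tested genes 3.16% were called higher and 0.305% lower with Ad-HNF4A, and 3.32% higher and 0.234% lower with Ad-K458R. A gene near 0 in the control is tested only through the libraries where it is high, so the count is a description. The receptor-transporting protein gene RTP3, 12.3 kb from LTF, was at 0 counts in the control libraries, 27, 16 and 52 with Ad-HNF4A and 64, 53 and 56 with Ad-K458R. Its mean was at least 36.4-fold and at least 62.8-fold higher than the control floor of 3 counts over the group (edgeR adjusted p = 0.0014 and 0.00040).

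APOA2, a high-density lipoprotein gene 1.59 kb from FCER1G, was higher with Ad-HNF4A by 0.25 on the log2 scale (edgeR adjusted p = 0.044) and not called with Ad-K458R (0.085, edgeR adjusted p = 0.59). NFKBID, 2.10 kb from TYROBP, was higher with Ad-K458R by 0.97 (edgeR adjusted p = 0.034) and not called with Ad-HNF4A (0.84, edgeR adjusted p = 0.071). The call of APOA2 was lost without Ad-GFP replicate 1 or 3 or Ad-HNF4A replicate 1 or 3, and that of NFKBID on leaving out any library except Ad-GFP replicate 3 (edgeR adjusted p up to 0.16 and 0.13). PDGFRB, whose 3′ end lies 465 bases from CSF1R, and CTSK, the cathepsin beside CTSS, were not called. Among second neighbours, singled out after the values were seen, SLC4A8 near BIN2 went from 0.251 ± 0.128 to 3.74 ± 1.12 and 4.23 ± 1.14 CPM (SD, n = 3; edgeR adjusted p = 0.00030 and 0.00015). GALNT6 lies between the pair and was not called.

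The genes that followed the members most closely, members left out, were found by Pearson correlation of log2 CPM with the members' mean standardised profile over the 9 libraries. These coefficients are a description, since the libraries share the 3 groups and the members were chosen on them. The 8 closest were PLAC8, SMPD3, APOA4, STAG3, ACSL5, SLC25A4, CA5A and TLR2, with r from 0.994 to 0.998. TLR2, a receptor for bacterial lipoproteins, was at 1.68 ± 0.0404, 8.90 ± 1.92 and 11.1 ± 0.844 CPM (SD, n = 3) in the 3 groups in turn. APOA4, an apolipoprotein of gut and liver, was at 18.6 ± 2.74, 137 ± 23.9 and 202 ± 11.8 CPM, and ACSL5, a fatty acyl-CoA synthetase, at 18.0 ± 1.03, 97.0 ± 24.4 and 123 ± 7.55 CPM. Among the members themselves, BIN2 lay closest to the mean profile (r = 0.992) and CD68 farthest from it (r = 0.886).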

How the data were processed

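Messenger RNA was sequenced from 9 Huh-7 tumours after oligo(dT) capture and random priming, per the labels' protocols. The authors deposited raw read counts and FPKM (counts scaled by gene length and library total) for 50868 human genes, per the file headers. Trimmomatic and the mouse build mm10 are named in the submitters' processing notes. No aligner or counting tool is named in the labels or headers used here. The table's genes are human: 98.5% of identifiers occur in GENCODE 29, 94.8% of these at the same GRCh38 position, as all 10 members do. Positions are the table's. Groups come from sample titles, and from the description for 1 Ad-K458R library with a misspelt title.

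Counts were tested with edgeR 4.0.16 in R 4.3.3 (quasi-likelihood, robust, TMM scaling, its filter on low counts, 9 libraries in 1 fit), with Benjamini-Hochberg adjustment over 16697 genes, two-sided. Calls are at an adjusted p under 0.05. The script was checked on simulated data. CPM uses TMM-scaled totals. SE come from the F statistic. Where the control held no count, folds use a floor of 3 counts over the group. Where it held 1 to 3, exact 95% intervals of the count ratio are given. Reads carry no molecular tags, so these bounds hold for counting error alone. Correlations used log2 CPM with a prior count of 2.

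The members, 13 marker lists and 8 related lists were chosen with earlier results of these data known. Named were the members, HNF4A, the defining markers, the 2 nearest neighbours of each member, the 8 most alike genes (mean log2 CPM of at least 1), and from each list up to 4 genes by level and 4 by p. Not every gene this rule allows is described, and some list genes that are counted are not reported here by name. Alternatives were DESeq2 1.42.0, limma-voom and limma-trend (limma 3.58.1, the last on log2(FPKM + 1)), RLE scaling, library totals, no filter, a filter of 1 CPM in 3 libraries, fits of 6 libraries, a replicate block, and leaving out each library. A search of protein sequences for ITAMs was planned and not run.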

Additional observations from a re-analysis of the deposited data

How the results depend on the processing

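No member tested was called between the HNF4A vectors in any alternative. Against Ad-GFP the direction was fixed by the choice of members, so their calls are counted as a description. The number of members called higher over the other alternatives was 6 to 9 for Ad-HNF4A and 8 to 10 for Ad-K458R. When a library was left out it was 5 to 8 and 8 to 9. S100A9 with Ad-HNF4A lost its call in 9 of 15 alternatives and FCER1G in 5 of 15 in each comparison, while CD68 with Ad-HNF4A gained one in 2. CSF1R was tested in 13 alternatives of each comparison, and lost its call in 3 with Ad-HNF4A and in 1 with Ad-K458R. Leaving out a library turned the sign of some uncalled log2 differences. Between the vectors these ran from -0.32 to 0.11 for FCER1G and from -0.031 to 0.16 for CTSS. For Ad-HNF4A over Ad-GFP they ran from -0.012 to 0.085 for LAMP1, -0.044 to 0.12 for CTSK, -0.43 to 0.038 for CSF1 and -0.24 to 0.029 for LYZ, and for Ad-K458R over Ad-GFP from -0.035 to 0.21 for CSF1. The cause was not tested.

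Same-numbered libraries did not deviate together (9 pair correlations from -0.0586 to 0.0404), so the numbers are names. With a replicate block, genes lower were 22 (Ad-HNF4A) and 15 (Ad-K458R) in place of 51 and 39, 1 leukocyte list gene was lower with Ad-HNF4A in place of 0, and among members S100A9 with Ad-HNF4A was not called (0.80, edgeR adjusted p = 0.083).

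For Ad-HNF4A against Ad-GFP, genes lower were 130 by DESeq2, 81 with no filter, 18 in the fit of 6 libraries, 15 on FPKM and 14 to 131 leaving out a library. Genes higher were 333 with 6 libraries and 328 to 625 leaving out a library, in place of 527. Leukocyte list genes higher were 5 with no filter, 1 with 6 libraries, 1 on FPKM and 1 to 4 leaving out a library, in place of 3. For Ad-K458R against Ad-GFP, genes lower were 87 by DESeq2, 20 on library totals, 13 on FPKM and 10 to 21 leaving out a library, and leukocyte list genes higher were 5 with no filter and 1 to 3 leaving out a library. Between the HNF4A vectors, genes higher were 46 by DESeq2, 2 by limma-voom, 7 with no filter, 6 with 6 libraries, 3 on FPKM and 1 to 11 leaving out a library, in place of 1. Genes lower were 14, 2 with no filter, 3 with 6 libraries and 1 to 5, in place of 1.

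Depth limits the members: with 1 count worth 0.0442 to 0.0626 CPM, 6 of the 10 had 10 or fewer counts over the 3 control libraries, and TYROBP was tested only without the filter.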
